A study of Oryza sativa Japonica Group with 4 samples.

Results

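The genes described here make and break down abscisic acid (ABA), the plant hormone of drought and seed dormancy, in above-ground rice seedling tissue. There are 8 of them, taken by locus identifier from the deposited gene tables, out of 28491 genes listed in at least 1 library. The 5 synthesis genes are OsNCED1 (LOC_Os02g47510), OsNCED3 (LOC_Os03g44380), OsNCED4 (LOC_Os07g05940), OsNCED5 (LOC_Os12g42280) and OsZEP1 (LOC_Os04g37619). The 3 breakdown genes are OsABA8ox1 (LOC_Os02g47470), OsABA8ox2 (LOC_Os08g36860) and OsABA8ox3 (LOC_Os09g28390). The members were listed in all 4 libraries, all 8 passed the filter on low counts, and none had a fractional count that would mark reads shared with a similar gene. The files do not pair identifiers with names, and the symbols are those in common use for these loci. The reference gene table held 5 of the 8 symbols, each on the chromosome given by the locus identifier, and OsNCED1, OsNCED4 and OsNCED5 could not be checked in this way.

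ABA is made from carotenoids. Zeaxanthin epoxidase (ZEP) acts early, in the plastid, where it turns zeaxanthin into violaxanthin. The 9-cis-epoxycarotenoid dioxygenases (NCED) then cut the epoxycarotenoids to xanthoxin, which is held to be the limiting step in leaves. The ABA8ox genes code for cytochrome P450 enzymes of the CYP707A family, which hydroxylate ABA and start its turnover to phaseic acid. In Arabidopsis, genes of that family are themselves induced by ABA.

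Of the 4 RNA sequencing libraries, 2 were labelled modd mutant, with modd2 in their titles, and 2 were labelled DongJin, the japonica wild type (DJ). The mutant came from the POSTECH mutant collection, and the sources used here do not give its kind or site. All plants were grown outdoors in soil without a stress treatment, with 14 h of light and 10 h of dark, and were taken at the 4-leaf stage. Whether the 2 libraries of a genotype come from different plants is not labelled. The p-values therefore measure the spread between these libraries, and that spread may be technical.

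The tables summed to between 5334814 and 5393972 expected reads per library. MODD (LOC_Os03g11550) itself was at 36.9 and 46.6 FPKM (fragments scaled by transcript length and library depth) in the libraries labelled modd, against 20.95 and 21.3 FPKM in the DJ libraries. It was called higher (log2 fold change 0.93 ± 0.146, SE, n = 2 per group, edgeR adjusted p = 0.0272), so the transcript level goes against the label if the mutation lowers it, and directions below hold for the libraries as labelled. OsbZIP46 (LOC_Os06g10880), the factor that MODD acts on per the series title, was at 5.24 and 7.23 FPKM in the libraries labelled modd, against 8.05 and 4.52 FPKM in the DJ libraries (edgeR adjusted p = 0.885). The first principal component of all 19365 genes tested held 60.2% of the variance. It placed the libraries labelled modd at -31.4 and -22.3, against 9.38 and 44.3 for DJ replicates 1 and 2, which leaves DJ replicate 2 apart. Root markers followed the reverse order. Summed, they reached 19.1 and 16.9 FPKM in the libraries labelled modd, against 15.4 and 11.7 FPKM in the DJ libraries, from 2 of 4 markers, with LSI2 and OsYSL15 listed in no library. RBCS (LOC_Os12g19470), a small-subunit gene of Rubisco, was at 378 and 370.3 FPKM in the libraries labelled modd, against 432 and 536 FPKM in the DJ libraries. The panicle marker OsMADS14 averaged 11.9 ± 1.29 FPKM in the libraries labelled modd and 11.6 ± 0.00707 FPKM in the DJ libraries (SD, n = 2 each). OsMADS15, of the same marker list, was listed in no library. The meristem marker OSH1, below the count filter, had 0 and 4 reads in the libraries labelled modd, against 8 and 9 in the DJ libraries. The part of these differences in the values below was not tested, and in whole shoots fewer cells of a type cannot be told apart from less RNA per cell.

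The ABA genes of the shoot were dominated by 3 transcripts. In the libraries labelled modd, OsABA8ox1, OsZEP1 and OsNCED1 averaged 102, 74.3 and 70.9 FPKM. Their ranges over the libraries overlapped, but each library labelled modd held them in that order. In the DJ libraries OsABA8ox1 stood above the others, at a mean of 391 FPKM, followed by OsNCED1 at 87.6 FPKM and OsZEP1 at 77.1 FPKM. The DJ ranges of OsNCED1 and OsZEP1 overlapped, with OsNCED1 the higher in each DJ library. The 5 remaining genes lay between 0.62 and 7.71 FPKM on average in the libraries labelled modd, and between 1.22 and 11.2 FPKM in the DJ libraries. The order of those lower genes was OsABA8ox3, OsABA8ox2, OsNCED3, OsNCED4 and OsNCED5 in the libraries labelled modd. In the DJ libraries OsNCED4 stood above OsNCED3. The ranges of OsABA8ox3 and OsABA8ox2, and those of OsNCED4 and OsNCED5, overlapped in the libraries labelled modd, whereas all 5 lower genes were separate in the DJ libraries.

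**Figure D1:**
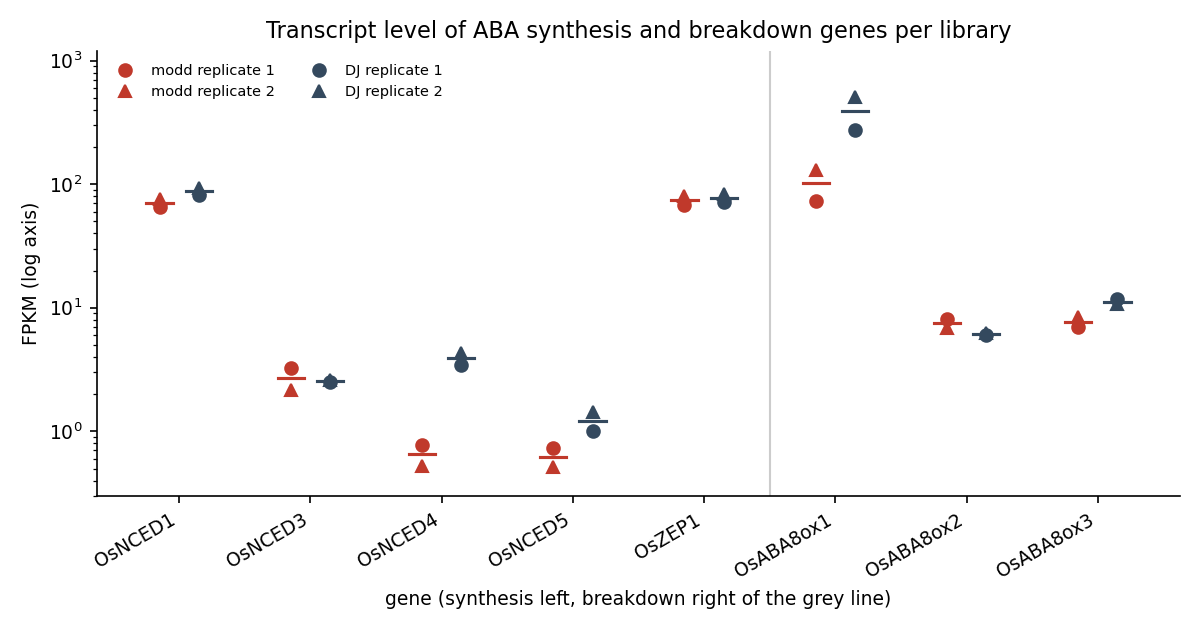
FPKM of each gene in each library on a log axis, with circles and triangles for replicates 1 and 2, bars for group means of 2 libraries, and the libraries labelled modd (red) left of DJ (dark blue). OsNCED4 and OsABA8ox1 show the widest gaps between the groups, and OsABA8ox1 also differs by over 1.5 times between the libraries of each group.

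Compared between genotypes, 1 of the 8 genes passed the test over all genes. OsNCED4 was called lower in the libraries labelled modd, and no member was called higher. The test was edgeR's quasi-likelihood F test, and a gene was called at a Benjamini-Hochberg adjusted p under 0.05, which 0.837% of all tested genes reached, 0.336% lower and 0.501% higher. At an unadjusted p under 0.05, 5 members were lower, where 8.39% of all tested genes were. The FPKM of the groups did not overlap for 6 members, 5 of them lower and 1 higher in the libraries labelled modd. Over all tested genes the groups were apart in 49.7%, with 21.1% lower and 28.6% higher. The median log2 fold change was -0.47 over the 8 members, -0.35 over the synthesis genes and -0.58 over the breakdown genes, beside 0.00474 over all tested genes. The members were chosen with earlier results of these data known, so these contrasts with all genes are descriptive and not independent support.

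**Figure D2:**
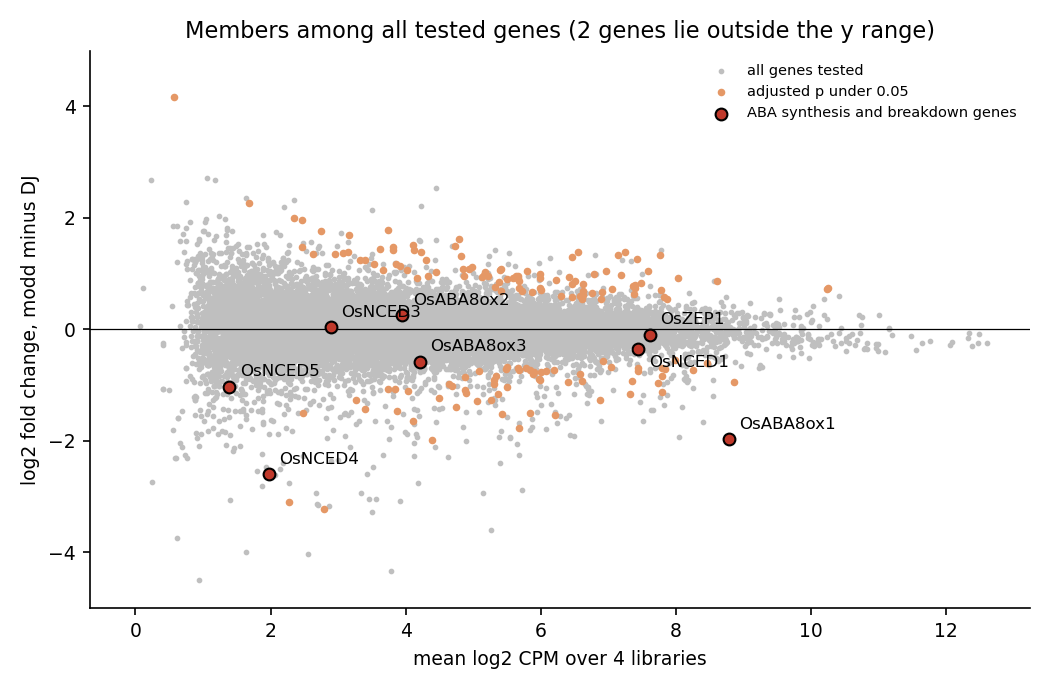
Log2 fold change of each tested gene (libraries labelled modd minus DJ) against its mean log2 CPM over 4 libraries, with genes at an adjusted p under 0.05 in orange and the 8 ABA genes in red; 2 genes lie outside the plotted range. OsABA8ox1, at -1.97, lies at the lower edge of the abundant genes without being called, and OsNCED4, at -2.60, is a low transcript that was called.

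OsNCED4, a dioxygenase gene of the limiting step, had 9 and 6 reads in the libraries labelled modd, against 40 and 50 in the DJ libraries. These counts gave 0.78 and 0.52 FPKM in the libraries labelled modd, against 3.47 and 4.3 FPKM in the DJ libraries. The groups were well apart, with the lower DJ library 4.45-fold above the higher library labelled modd. The log2 fold change was -2.60 ± 0.354 (SE, n = 2 per group, 95% interval -3.39 to -1.81, edgeR adjusted p = 0.0213), 6.08-fold lower. Of all 19365 tested genes, 27 had a more negative fold change. On summed reads alone the DJ to modd ratio had an exact 95% interval from 3.44 to 11.1, which covers counting error only. The call held with each library left out, with log2 fold changes from -2.91 to -2.35. It did not hold with limma on log2(FPKM + 1) or log2(FPKM + 0.1), where 0 of all genes were called. The log2 fold change was -1.57 on the first scale, which shrinks fold changes of low genes (limma adjusted p = 0.104). On the second it was -2.42 (limma adjusted p = 0.121).

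OsNCED1 carried nearly all of the NCED transcript. It was at 65.4 and 76.4 FPKM in the libraries labelled modd, against 81.2 and 93.9 FPKM in the DJ libraries, from 768 to 1115 reads per library. The groups did not overlap, but the lower DJ library was only 1.06-fold above the higher library labelled modd. The log2 fold change was -0.35 ± 0.129 (SE, n = 2 per group, 95% interval -0.64 to -0.06) and did not pass (edgeR adjusted p = 0.218). Without DJ replicate 1 it was called, at -0.48 (edgeR adjusted p = 0.00357), in a fit that called 2483 genes, against 162 with all 4 libraries. Without DJ replicate 2 it was at -0.21 (edgeR adjusted p = 0.543). OsNCED1 made up 93.2 and 96.0% of the summed NCED level in the libraries labelled modd, against 92.1 and 91.8% in the DJ libraries.

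OsNCED5 and OsNCED3, the other dioxygenase genes, were low. OsNCED5 had 10 and 7 reads in the libraries labelled modd, against 14 and 20 in the DJ libraries, or 0.73 and 0.51 FPKM against 1.01 and 1.43 FPKM. Its groups lay apart, and the log2 fold change was -1.03 ± 0.438 (SE, n = 2 per group, edgeR adjusted p = 0.273). Its 95% interval reached up to -0.05, so a difference close to 0 is within it. OsNCED3 had 47 and 31 reads in the libraries labelled modd, against 36 and 38 in the DJ libraries, or 3.27 and 2.15 FPKM against 2.5 and 2.62 FPKM. Both DJ values lay between those of the libraries labelled modd, and the log2 fold change was 0.04 ± 0.27 (SE, n = 2 per group, 95% interval -0.56 to 0.64, edgeR adjusted p = 0.96).

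OsZEP1, the epoxidase gene upstream of the dioxygenases, showed no detectable difference. It was at 68.1 and 80.6 FPKM in the libraries labelled modd, against 71.7 and 82.5 FPKM in the DJ libraries, so the groups overlapped. The log2 fold change was -0.10 ± 0.132 (SE, n = 2 per group, edgeR adjusted p = 0.749). Its 95% interval ran from -0.39 to 0.20, and the sign changed with single libraries left out. In both groups replicate 2 was the higher library.

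OsABA8ox1, the main hydroxylase gene, had the largest difference in abundance among the members. It was at 73.0 and 131 FPKM in the libraries labelled modd, against 276 and 506 FPKM in the DJ libraries. The reads behind these values were 899 and 1621 in the libraries labelled modd, against 3354 and 6236 in the DJ libraries. On summed reads the DJ to modd ratio was 3.79, with an exact 95% counting interval from 3.62 to 3.96. Every library labelled modd lay below both DJ libraries, and the lower DJ library was 2.1-fold above the higher library labelled modd. In normalised counts the group means were 234 CPM (counts scaled to library size) in the libraries labelled modd and 915 CPM in the DJ libraries. By that measure 6 of the 19365 tested genes had a larger fall in mean CPM. By FPKM OsABA8ox1 ranked 1441st and 612th among all genes in the libraries labelled modd, against 209th and 93rd in the DJ libraries.

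That difference did not pass the test over all genes. The log2 fold change of OsABA8ox1 was -1.97 ± 0.523 (SE, n = 2 per group, 95% interval -3.56 to -0.37, edgeR adjusted p = 0.239). Libraries of 1 genotype differed from each other 1.8-fold in modd and 1.83-fold in DJ, with replicate 2 the higher in both. Replicate numbers are not stated to pair the libraries. The SE was larger in only 2.27% of tested genes. Among 10602 tested genes whose mean reached 10 FPKM, 1.56% had DJ libraries as far apart as this, and 0.698% had libraries labelled modd as far apart. Without robust estimation the same fold change passed (edgeR adjusted p = 0.0411). With DJ replicate 2 left out the log2 fold change was -1.42 (edgeR adjusted p = 0.716), and with replicate 2 labelled modd left out it was -2.47 (edgeR adjusted p = 0.285). Its levels ordered the libraries as the first principal component did, and OsNCED1 gave the same order.

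The deposited lengths bear on the transcript forms of OsABA8ox1. RSEM averages the length of a gene over its transcripts by their estimated abundance, and OsABA8ox1 was listed with several transcripts. That length was 2294 and 2290.27 bases in the libraries labelled modd, against 2261 and 2271 bases in the DJ libraries. By these estimates the mix of forms was slightly longer in both libraries labelled modd. How often such lengths separate the groups over all genes was not computed, so a change of forms was not tested. The length of OsZEP1 also varied, at 2562 and 2572 bases in the libraries labelled modd, against 2564 and 2572 bases in the DJ libraries, and overlapped. As the FPKM values are scaled by length, the shift of OsABA8ox1 is already in them, and it is small beside the difference in reads.

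OsABA8ox3 and OsABA8ox2, the minor hydroxylase genes, were not called. OsABA8ox3 was at 7.05 and 8.37 FPKM in the libraries labelled modd, against 11.7 and 10.8 FPKM in the DJ libraries. Its groups did not overlap, and the log2 fold change was -0.58 ± 0.175 (SE, n = 2 per group, 95% interval -0.97 to -0.19, edgeR adjusted p = 0.141). It kept its sign with each library left out, from -0.72 to -0.45. OsABA8ox2 was at 8.14 and 6.92 FPKM in the libraries labelled modd, against 6.01 and 6.29 FPKM in the DJ libraries. It was the member with groups apart in the upward direction, and its log2 fold change was 0.25 ± 0.186 (SE, n = 2 per group, 95% interval -0.17 to 0.66, edgeR adjusted p = 0.538). The difference between the 2 genes' fold changes was not tested.

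**Figure D3:**
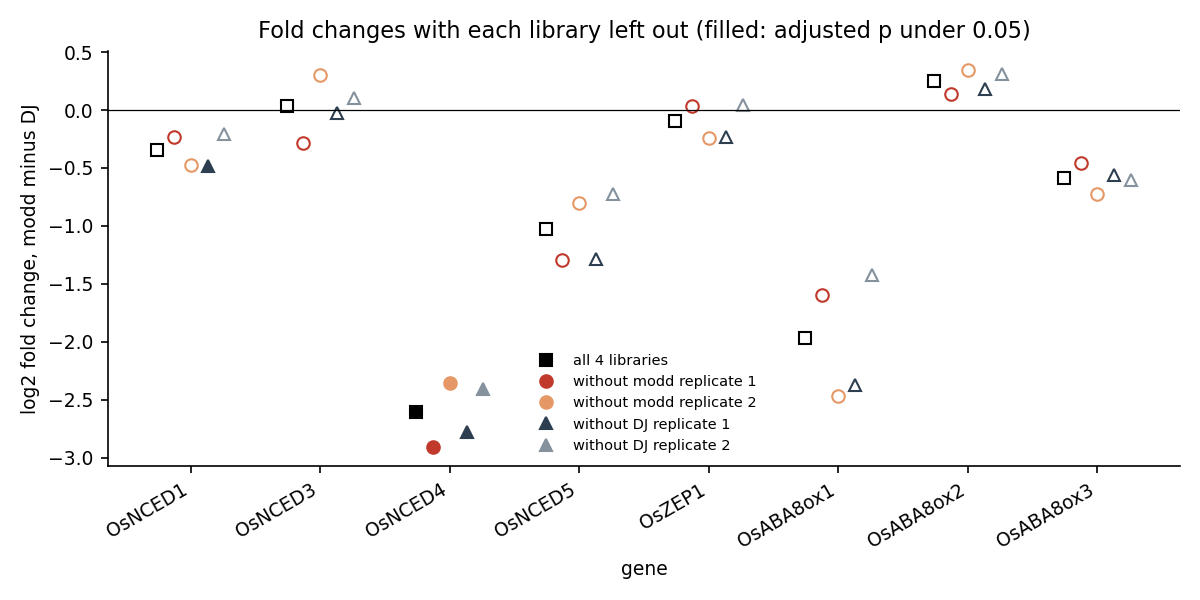
Log2 fold change (libraries labelled modd minus DJ) of each gene with all 4 libraries (squares) and with each library left out (circles for modd, triangles for DJ), filled where the edgeR adjusted p was under 0.05. OsNCED4 stayed filled throughout, OsNCED1 was filled without DJ replicate 1, and OsNCED3 and OsZEP1 lay on both sides of 0.

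Synthesis was set against breakdown by summing FPKM within each library. The NCED genes together were at 70.2 and 79.6 FPKM in the libraries labelled modd, against 88.2 and 102 FPKM in the DJ libraries. The hydroxylase genes together were at 88.2 and 147 FPKM in the libraries labelled modd, against 294 and 523 FPKM in the DJ libraries. Both sums were lower in the libraries labelled modd without overlap, the NCED sum by a factor of 1.27 between group means and the hydroxylase sum by a factor of 3.48.

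The balance of transcripts lay further towards synthesis in the libraries labelled modd. The NCED to hydroxylase ratio was 0.796 and 0.543 in the libraries labelled modd, against 0.3 and 0.195 in the DJ libraries. The mean log2 ratio was -0.61 ± 0.39 in the libraries labelled modd and -2.05 ± 0.439 in the DJ libraries (SD, n = 2 each), a difference of 1.44. No test is given for a sum over chosen genes, and 2 libraries against 2 cannot go below an exact two-sided permutation p of 0.33. Hydroxylase transcripts outnumbered NCED transcripts per length in all 4 libraries, by 1.26-fold and 1.84-fold in the libraries labelled modd and by 3.33-fold and 5.12-fold in the DJ libraries.

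That ratio rested on OsABA8ox1. It supplied 82.8 and 89.6% of the hydroxylase sum in the libraries labelled modd, against 94.0 and 96.7% in the DJ libraries. OsABA8ox2 and OsABA8ox3 together were at 15.2 and 15.3 FPKM in the libraries labelled modd, against 17.7 and 17.1 FPKM in the DJ libraries. With OsABA8ox1 left out, the NCED to hydroxylase ratio was 4.62 and 5.2 in the libraries labelled modd, against 4.99 and 5.98 in the DJ libraries, and the groups overlapped. With OsNCED1 left out as well, the ratio was 0.315 and 0.208 in the libraries labelled modd, against 0.395 and 0.489 in the DJ libraries, the opposite order.

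**Figure D4:**
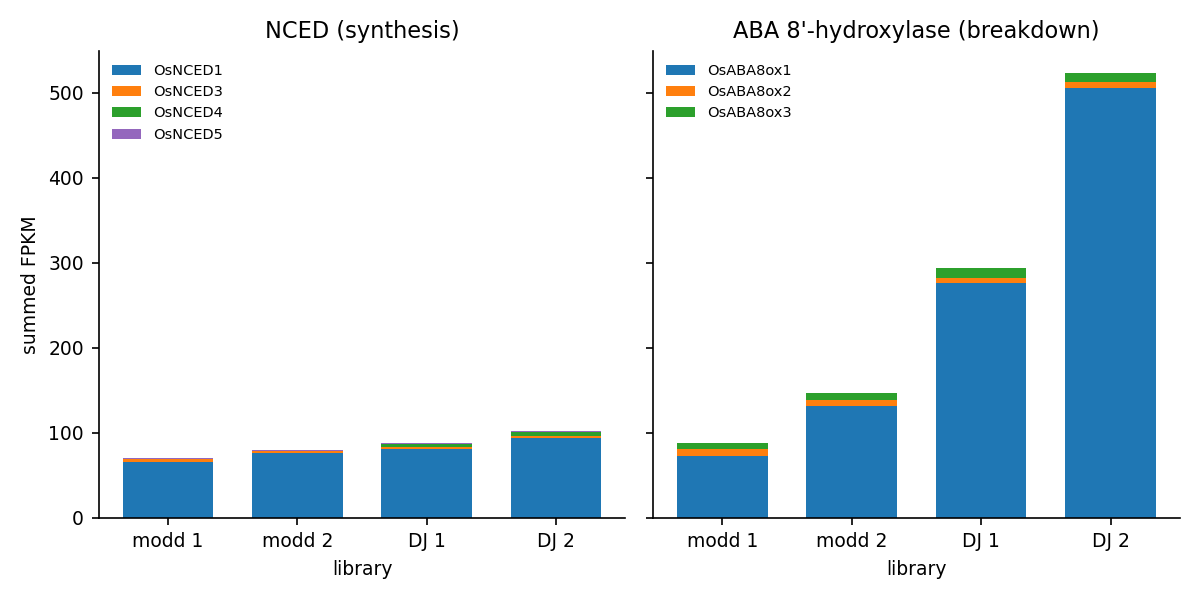
Stacked FPKM of the NCED genes (left panel) and of the hydroxylase genes (right panel) in each library, on 1 shared axis from 0. The NCED bars range from 70.2 to 102 FPKM, and the hydroxylase bars from 88.2 to 523 FPKM, of which OsABA8ox1 makes up 82.8 to 96.7%.

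OsABA8ox1 and OsNCED1 have nearly adjacent locus identifiers on chromosome 2, which pairs a main breakdown gene with the main synthesis gene. Between them the tables listed 2 loci, of which 1 was tested, which differed by -0.05 on the log2 scale (edgeR adjusted p = 0.923). Of 6 listed loci just outside the pair, 4 were tested, with log2 fold changes from -0.24 to 0.32 and no call, where 0.837% of all tested genes were called. The OsABA8ox1 to OsNCED1 ratio was 1.12 and 1.72 in the libraries labelled modd, against 3.4 and 5.39 in the DJ libraries. None of these tested loci differed by as much as OsABA8ox1.

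Other enzymes of the pathway showed no called change. In the list of further ABA synthesis genes, 4 of 5 were tested, 2 with log2 fold changes below 0 and 2 above, with a median of -0.02. OsAAO3 (LOC_Os07g18120), an aldehyde oxidase gene of the last step, was at 3.73 and 3.32 FPKM in the libraries labelled modd, against 5.03 and 4.25 FPKM in the DJ libraries (log2 fold change -0.44, edgeR adjusted p = 0.238). Its counts held fractions, which mark reads shared with similar genes. OsABA4 (LOC_Os01g03750), whose Arabidopsis counterpart acts in neoxanthin synthesis, was at 10.5 and 10.6 FPKM in the libraries labelled modd, against 7.88 and 7.39 FPKM in the DJ libraries (log2 fold change 0.42, edgeR adjusted p = 0.382). OsABA3 (LOC_Os06g45860), of the molybdenum cofactor that aldehyde oxidase needs, differed by -0.17 on the log2 scale (edgeR adjusted p = 0.616). OsNCED2 (LOC_Os12g24800) was below the count filter, at 0 and 2 reads in the libraries labelled modd, against 1 and 0 in the DJ libraries.

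In the list of carotenoid supply, 15 of 15 genes were tested and none was called. Of these, 12 had log2 fold changes below 0, where 49.4% of all tested genes did, with a median of -0.18. The list includes the branch to lutein, so these values do not measure the supply of ABA precursors. OsBCH3 (LOC_Os10g38940), a beta-carotene hydroxylase gene with shared reads, was at 21.2 and 17.2 FPKM in the libraries labelled modd, against 29.3 and 27.9 FPKM in the DJ libraries (log2 fold change -0.62, edgeR adjusted p = 0.0903). OsBCH1 (LOC_Os03g03370), of the same family and also with shared reads, had groups apart the other way, at 5.78 and 6.85 FPKM in the libraries labelled modd, against 4.1 and 3.45 FPKM in the DJ libraries (log2 fold change 0.70, edgeR adjusted p = 0.214). OsLCYE (LOC_Os01g39960), the lycopene cyclase gene that leads to lutein, differed by -0.39 on the log2 scale (edgeR adjusted p = 0.132). Among 4 genes of other carotenoid cleavage, 2 were tested and none was called. D17 (LOC_Os04g46470), a strigolactone synthesis gene, differed by -0.32 on the log2 scale (edgeR adjusted p = 0.377), and OsCCD1 (LOC_Os12g44310) one of -0.03 (edgeR adjusted p = 0.898).

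**Figure D5:**
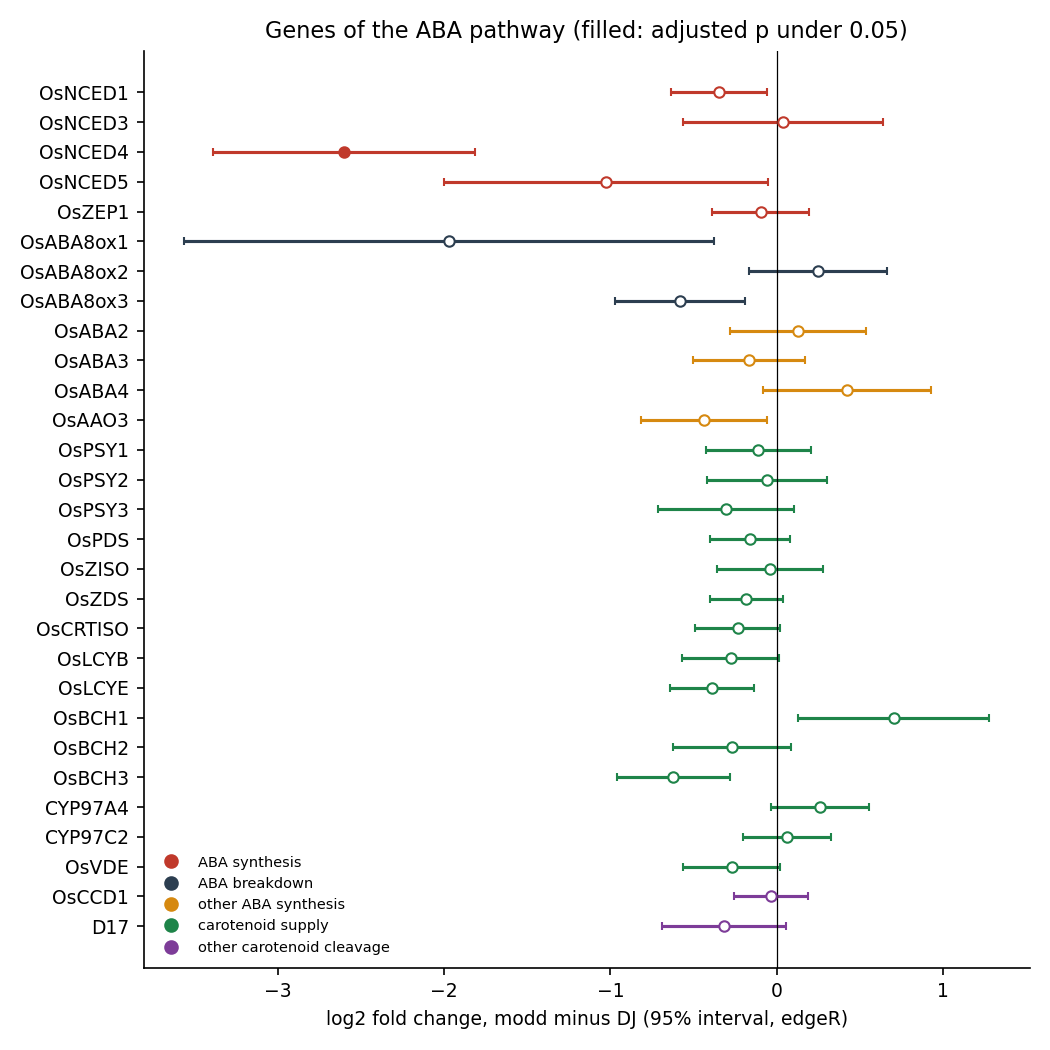
Log2 fold change (libraries labelled modd minus DJ) with its 95% interval from edgeR for each tested gene of ABA synthesis, ABA breakdown, carotenoid supply and other carotenoid cleavage, filled where the adjusted p was under 0.05. OsNCED4 is the filled point, and OsABA8ox1 has the widest interval, from -3.56 to -0.37.

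Genes that ABA is known to induce did not separate the genotypes by the test. Of 7 listed, 3 were tested and none was called, with a median log2 fold change of 0.04. LIP9 (LOC_Os02g44870), a dehydrin gene, was at 159 and 168 FPKM in the libraries labelled modd, against 137 and 120.3 FPKM in the DJ libraries (log2 fold change 0.31, edgeR adjusted p = 0.186). SalT (LOC_Os01g24710), a salt-induced lectin gene, differed by 0.04 on the log2 scale (edgeR adjusted p = 0.909). OsRAB16A (LOC_Os11g26790), another dehydrin gene, had 10 and 7 reads in the libraries labelled modd, against 17 and 4 in the DJ libraries (edgeR adjusted p = 0.826).

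Clock genes, whose transcripts vary over the day, were set beside these values. All 7 listed were tested and none was called, with log2 fold changes from -0.14 to 0.21 and a median of -0.06. The largest was OsPRR59 (LOC_Os11g05930), a pseudo-response regulator gene, at 47.4 and 38.9 FPKM in the libraries labelled modd, against 36.0 and 36.3 FPKM in the DJ libraries (edgeR adjusted p = 0.391). OsPRR95 (LOC_Os09g36220) and OsPRR73 (LOC_Os03g17570) differed by 0.16 and -0.14 on the log2 scale (edgeR adjusted p = 0.532 and 0.582).

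Among the listed genes, those most like OsNCED4 over the 4 libraries were OsABA8ox1 and OsNCED5. Likeness was the Euclidean distance between log2 CPM values centred per gene. It was 1.09 for OsABA8ox1, 61st of 19364 other tested genes, and 1.47 for OsNCED5, 236th, beside a median of 2.4. Measured from a gene named because it fell, this distance largely repeats the group difference. By lowest log2 fold change OsABA8ox1 was 62nd and OsNCED5 320th, so these ranks are not separate evidence that the genes vary together. The centred values of OsNCED4 were -0.95 and -1.40 in the libraries labelled modd, against 1.00 and 1.35 in the DJ libraries. Those of OsABA8ox1 were -1.41 and -0.54 in the libraries labelled modd, against 0.51 and 1.45 in the DJ libraries. Both were low in both libraries labelled modd, but replicate 1 labelled modd was the lower one for OsABA8ox1 and the higher one for OsNCED4.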

How the data were processed

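Messenger RNA was measured in 4 libraries, 2 per genotype, grouped by their genotype labels. Per the submitters' processing notes, BWA, Bowtie and RSEM were used; the sources used here do not give versions, roles, build or annotation. The authors deposited, per the file headers, an expected count (estimated reads per gene, shared reads split), an FPKM value (scaled by length and depth) and a length for each gene. The tables list only genes above 0, and a missing gene was counted as 0.

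Rounded expected counts were analysed in R 4.3.3 by edgeR 4.0.16. The steps were filterByExpr (minimum count 10, minimum total 15), TMM, a robust quasi-likelihood fit without covariate, and Benjamini-Hochberg adjustment over all 19365 genes tested. SE is the absolute log2 fold change over the square root of F, and the 95% intervals use the fit's degrees of freedom. The common biological coefficient of variation was 10.3%. The procedure was run on simulated counts drawn from its own fitted levels and spread, which do not cover a library that stands apart. Libraries of a group differed by more than sampling noise (chi-square per degree of freedom 2.54 in modd and 4.5 in DJ) and were kept apart. Exact (Clopper-Pearson) intervals on reads cover counting error only.

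Members and gene lists were chosen with earlier results of these data known, so nothing here is independent support. Named genes are the 8 members, MODD, OsbZIP46, and up to 3 tested genes with the smallest adjusted p of each other list. Outside that rule, the untested OsNCED2, LSI2, OsYSL15, OSH1 and OsMADS15 are named, and the other untested listed genes are not. The 2 listed genes nearest to each called member by distance are also named. Of 56 listed genes, 33 symbols were in the reference table (assembly ASM3414082v1) and 32 lay on the same chromosome as the locus; the exception is OsABA2. No identifier of the files matched that table. A planned search for promoter motifs was not run because no promoter sequences were used here. Alternatives were DESeq2 1.42.0, limma 3.58.1 on FPKM, upper-quartile or RLE factors, other filters, unrounded counts, non-robust estimation, a replicate block and each library left out.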

Additional observations from a re-analysis of the deposited data

How the results depend on the processing

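Over the alternatives, 97 of 106 fold changes of the members kept their direction and their side of the threshold. OsABA8ox1 passed without robust estimation (-1.97, edgeR adjusted p = 0.0411) and with the replicate number as a block (-1.96, edgeR adjusted p = 1.26e-06). The replicate block raised the calls to 870 over all genes and to 2 among members. Replicate numbers are not stated to pair the libraries, and deviations of same-numbered libraries correlated at 0.0126 over genes. OsNCED4 did not pass with limma on log2(FPKM + 1) (-1.57) or log2(FPKM + 0.1) (-2.42), where 0 genes and 0 members were called and 3164 and 3120 genes had an unadjusted p under 0.05. DESeq2 called 339 genes and 0 members, with 1474 genes at an unadjusted p under 0.05. It gave OsABA8ox1 a log2 fold change of -1.97, just over the threshold (DESeq2 adjusted p = 0.054). For OsNCED4 it gave -2.63 (DESeq2 unadjusted p = 5.95e-05) but no adjusted p, nor one for OsNCED3 and OsNCED5. OsNCED5 was below the FPKM filter. Against 162 calls, upper-quartile factors gave 102 and no count filter 764. Without robust estimation 2 members were called. The cause of these changes was not tested.

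With single libraries left out, calls ran from 144 (without modd replicate 1) to 2483 (without DJ replicate 1), with 591 without modd replicate 2 and 457 without DJ replicate 2, and member calls from 1 to 2. A lone library is assumed there to vary like the other group. Fold changes ran from -0.48 to -0.21 for OsNCED1, -0.28 to 0.30 for OsNCED3, -0.24 to 0.04 for OsZEP1 and -2.47 to -1.42 for OsABA8ox1. OsNCED3 turned to -0.28 without modd replicate 1 and -0.03 without DJ replicate 1. OsZEP1 turned to 0.032 without modd replicate 1 and 0.0435 without DJ replicate 2. The log2 NCED to hydroxylase ratio, 1.44 higher in the libraries labelled modd, ran from 1.13 to 1.75 with a library left out. It turned to -0.78 without the highest member of each sum. Without OsABA8ox1, an alternative chosen after seeing the data, it was -0.16. For OsNCED5, with 7 to 20 reads per library, the DJ to modd ratio of summed reads had an exact 95% counting interval from 1.08 to 3.8.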
